A study of Mus musculus with 13 samples.

Results

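These data describe how a DNA break within IgH, the mouse locus of the antibody heavy chains on chromosome 12, was joined in activated splenic B cells and in activated splenic T cells. The 6 libraries whose titles name IgH B cells or IgH T cells were taken, 3 of each, numbered 19, 21 and 23 in both groups, out of 13 libraries in the series. They hold 6878 of the 16455 deposited junctions, and every deposited line was used. Cells of both groups carried the genotype labelled IgH2-28xI. B cells were activated with anti-CD40/IL-4 and T cells with ConcanavalinA/IL-2, so that cell type and activation changed together and cannot be told apart. The labels give no age, sex or strain, nothing that says whether libraries came from separate animals, and no statement of how I-SceI was supplied, so p-values measure only the spread between these libraries. The comparison asks how often breaks at a distance on one chromosome are joined in different cell types.

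In high-throughput genome-wide translocation sequencing (HTGTS), a primer next to one known break, the bait, is used to amplify whatever sequence, the prey, was joined to it. The known breaks here were made by I-SceI, a yeast nuclease with a long recognition site that mammalian genomes generally lack, inserted here in cassettes. IgH is also broken naturally in B cells. During class switching breaks arise in repetitive switch regions, S mu and one downstream region such as S gamma 1 or S epsilon, and joining them replaces the constant region of the antibody. Switch repeats are rich in the motif AGCT, and anti-CD40 with IL-4 is a standard way to start switching to IgG1 and IgE. T cells do not normally switch.

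Depth was uneven. B-cell replicates 19, 21 and 23 held 933, 1115 and 483 junctions and the T-cell replicates 1253, 2707 and 387, so that a count of 0 allows a share of up to 0.621% in the smallest B-cell library and 0.775% in the smallest T-cell library. Read names place replicates 19 and 21 of both groups on one sequencing run and replicate 23 of both on another. Replicate 23 had the shortest reads in both groups, with a median of 183 bases in B cells and 184 in T cells, against 214 to 257 in the others. From 9.30 to 28.3% of lines repeated a position and strand of another line of the library. Counting 1 line per position and strand is the alternative for this. In 136 of 6587 distinct sets of prey coordinates the same set occurred in more than 1 library. Junctions in DNA carry no expression, so the labelled cell types could not be checked against marker genes.

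The break surrounded by the larger share of junctions had its most used position at 114577038 of chromosome 12 (mm9), at the edge of S gamma 1, and was taken as the bait, since the labels do not place the primer. The second, the partner, had it at 114664493, 87.5 kb away, next to S mu. Prey fragments that ran into the bait cassette from its left most often stopped at 114568854, so that 8.18 kb of S gamma 1 between these edges appears to be missing from the cassette copy of the chromosome. On the partner side the deposited reference appears to hold 2 I-SceI sites between 114664485 and 114664524. These were inferred from a short sequence that occurs 2 times near the partner peak, without comparison with the known recognition site. Their edges may therefore be off by a few bases. By the trans Smu label of the tables, the stretch of S mu between 114661018 and 114663993 appears to be missing from the cassette copy. Positions rise from the constant regions on the left, toward the centromere, to the variable segments on the right, toward the telomere. A fragment on the + strand that starts right of a break and runs to the right is a join to the break's right end, and one on the - strand that starts left of it and runs to the left is a join to its left end. Library values below are in the order of replicates 19, 21 and 23.

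Stretches of chromosome 12 where junctions gathered are shown here (mm9, + strand, 5′ to 3′, assembled from the deposited prey sequences), chosen after the junctions were seen, to let the sequence next to the bait cassette be compared with the switch repeats. In the first, capitals mark the 8 bases at which 10 or more junctions began. In the others, capitals mark AGCT.
Right edge of the bait cassette, chr12:114577038-114577157: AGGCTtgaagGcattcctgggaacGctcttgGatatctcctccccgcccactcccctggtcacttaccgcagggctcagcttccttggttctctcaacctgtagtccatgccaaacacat
S epsilon, chr12:114514482-114514631: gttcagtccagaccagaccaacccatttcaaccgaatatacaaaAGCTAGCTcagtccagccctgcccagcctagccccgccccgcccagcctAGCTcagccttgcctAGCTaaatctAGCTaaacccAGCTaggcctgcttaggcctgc
S gamma 3, chr12:114603330-114603429: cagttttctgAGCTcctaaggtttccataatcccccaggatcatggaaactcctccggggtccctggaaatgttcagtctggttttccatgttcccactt
S mu of the other copy, chr12:114663519-114663618: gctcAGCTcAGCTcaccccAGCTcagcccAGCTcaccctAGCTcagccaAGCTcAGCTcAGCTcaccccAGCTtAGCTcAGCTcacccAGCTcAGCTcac
The first stretch held 183 junctions of B cells and 358 of T cells, 534 of them on the + strand. The S epsilon stretch, with 6 AGCT, held 9 and 2, the S gamma 3 stretch, with 1 AGCT, held 7 and 0, and the S mu stretch, with 13 AGCT, held 5 and 0.

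B cells put fewer of their junctions next to the bait and more far from it than T cells. Within 10 kb of the bait peak lay 39.1, 43.6 and 41.4% of junctions in B cells and 56.4, 58.6 and 54.0% in T cells. The rest of chromosome 12, outside both windows and the stretch between them, held 7.40, 8.79 and 8.70% in B cells and 3.03, 2.84 and 4.13% in T cells. It includes the farther joins to the left bait end, because the bait window is centred on the right cassette edge. Other chromosomes held 8.15, 6.73 and 7.45% in B cells and 2.08, 2.29 and 2.07% in T cells. In each of these 3 measures every B-cell library lay on one side of every T-cell library, as it did in 9 of the 15 planned measures (60.0%). With windows of 5 kb to either side the share on the rest of chromosome 12 was 14.4% against 9.05% and the groups overlapped (exact permutation p = 0.2). A window of 5 kb ends before the left cassette edge, 8.18 kb from the bait peak. All joins to the left bait end then count in the rest of chromosome 12, so that this setting does not measure far joins alone. As deposited, the exact permutation p was 0.1 for each of the 9, the smallest that 3 against 3 libraries can give, and adjusted p = 0.167, so that no single measure could pass 0.05. The partner window overlapped, with 42.7, 36.7 and 41.2% in B cells and 37.9, 35.4 and 38.2% in T cells (exact permutation p = 0.3). With windows of 5 kb its difference of 3.01 points was 4.33 without overlap (exact permutation p = 0.1), and with 1 library left out it ranged from 1.77 to 4.76.

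Sorting the junctions by the broken end they used placed the difference at the bait on its right end. The right bait end took 32.5, 34.9 and 30.2% of junctions in B cells and 49.6, 51.8 and 43.2% in T cells, a difference of -15.6 percentage points (B minus T). The left bait end took 5.04, 7.09 and 9.11% in B cells and 4.79, 4.10 and 9.56% in T cells, where the libraries overlapped (exact permutation p = 0.7). At the partner the right end was used more in B cells, at 25.3, 21.4 and 22.0% against 19.7, 17.3 and 17.8%. Its left end was used less in B cells, at 11.4, 9.15 and 12.8% against 13.4, 13.1 and 14.7%. The groups did not overlap at either partner end or at the right bait end (exact permutation p = 0.1, adjusted p = 0.153 over 26 measures added after the data were seen). With 1 junction per position and strand the right partner end was 0.982 points higher in B cells, with overlap (exact permutation p = 0.4), and without lines whose prey held a whole I-SceI site 1.45 points higher (exact permutation p = 0.5). In the first of these the right bait end differed by -14.04 points and did not overlap.

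**Figure D1:**
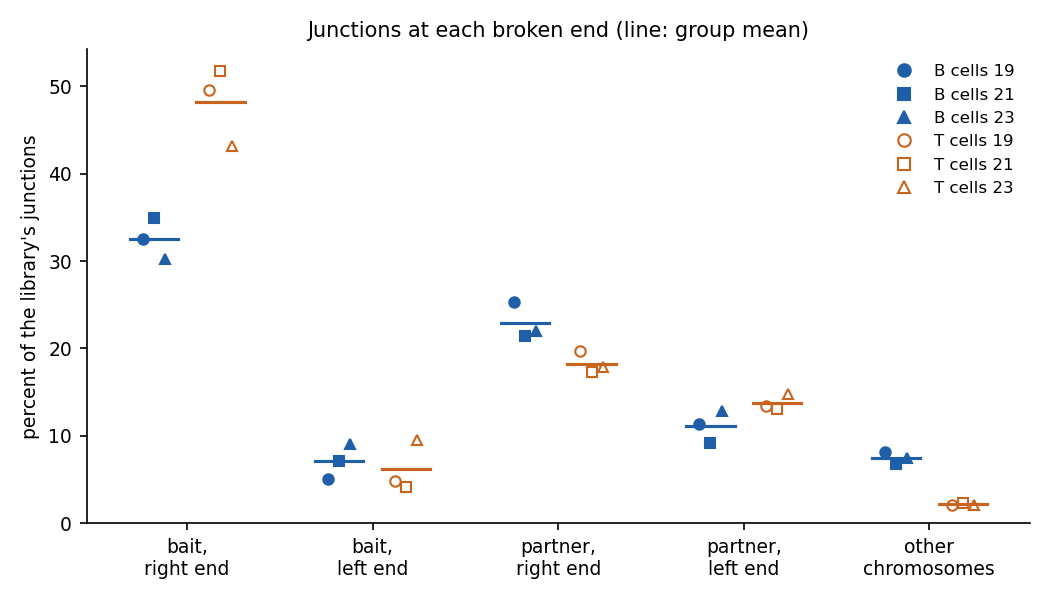
Percent of each library's junctions (y axis) at the 4 broken ends and on other chromosomes, with 1 point per library (blue B cells, orange T cells; shape gives the replicate number) and a line at the group mean. The 3 B-cell points lie below all T-cell points at the right bait end (30.2 to 34.9% against 43.2 to 51.8%) and above them on other chromosomes, while the left bait end overlaps.

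Per join to the right bait end, B cells made more joins to the right partner end. This ratio was 0.779, 0.614 and 0.726 in B cells and 0.398, 0.333 and 0.413 in T cells, and the groups did not overlap (exact permutation p = 0.1). The difference of 0.325 became 0.175 with 1 junction per position and strand, still without overlap. For left ends the partner-to-bait ratio was 2.26, 1.29 and 1.41 in B cells and 2.80, 3.19 and 1.54 in T cells, with overlap (exact permutation p = 0.2) and B cells lower in all 3 pairs. Both breaks favoured the right end in every library. Of joins to either bait end, 86.6, 83.1 and 76.8% used the right one in B cells and 91.2, 92.7 and 81.9% in T cells, with overlap (exact permutation p = 0.3), although B cells were lower in all 3 same-numbered pairs, with differences of -9.54 to -4.62 points (sign-flip exact p = 0.25, which is the smallest 3 pairs can give). Of joins to either partner end, 69.0, 70.1 and 63.1% used the right one in B cells and 59.5, 56.9 and 54.8% in T cells, without overlap (exact permutation p = 0.1).

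In the deposited lines, joins to the right bait end began closer to the cassette edge in B cells, and joins to the left bait end did not. Joins to both partner ends began closer to the I-SceI sites in B cells. Broken ends are resected, that is chewed back by nucleases, before some kinds of joining, and the distance of a junction from its end is read as a measure of the sequence lost before the join. At the bait, distance was counted from the inferred cassette edges and not from the cut itself. At the partner it was counted from the outer bases of the I-SceI sites, with joins between them set to 0 bp. Bait and partner medians are therefore not on one scale. At the right bait end the median distance was 577, 499 and 637.5 bp in B cells and 692, 668 and 839 bp in T cells, without overlap (-162 bp, exact permutation p = 0.1). Leaving out junctions within 100 bp of the cassette edge changed this to -88.5 bp, still without overlap. Beyond 1 kb lay 34.0, 31.6 and 34.9% of its junctions in B cells and 35.6, 37.04 and 46.1% in T cells. That difference of -6.07 points was -2.80 without T-cell replicate 23, and without junctions within 100 bp it was -4.56 with overlap (exact permutation p = 0.3). At the left bait end the medians of 1179, 971 and 791.5 bp in B cells and 880.5, 1135 and 972 bp in T cells overlapped (exact permutation p = 0.9).

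At the partner many joins of both groups lay within 100 bp of the sites. At the right end these were 66.5, 61.1 and 64.2% in B cells and 62.8, 48.8 and 56.5% in T cells. At the left end they were 62.3, 57.8 and 45.2% in B cells and 47.6, 48.3 and 29.8% in T cells. The groups overlapped at either end. The median distance from the right end was 11, 8 and 7.5 bp in B cells and 28, 148 and 62 bp in T cells. From the left end it was 17.5, 17.5 and 164 bp in B cells and 201, 165.5 and 341 bp in T cells. Neither overlapped (exact permutation p = 0.1), but the size of both depended on which lines were counted. With junctions within 100 bp left out, the right-end difference was -455 bp, still without overlap (558 against 1013 bp, exact permutation p = 0.1). Without lines whose prey still held an I-SceI site the right-end difference of -70.5 bp became -13.2 bp with overlap (exact permutation p = 0.9). Without T-cell replicate 21 it was -36.2 bp, and with 1 junction per position and strand it was -118 bp with overlap (142 against 260 bp, exact permutation p = 0.6). Without junctions within 100 bp the left-end difference of -170 bp became -18.2 bp (exact permutation p = 1).

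The far part of the partner profile differed as well. More than 1 kb from the right partner end lay 13.6, 15.5 and 7.55% of its joins in B cells and 19.8, 24.8 and 21.7% in T cells. More than 3 kb from it lay 0.424, 1.67 and 0% in B cells and 2.83, 5.14 and 4.35% in T cells. Joins more than 1 kb from the left partner end made up 18.9, 17.6 and 20.97% in B cells and 25, 27.4 and 28.1% in T cells. None of these 3 overlapped (exact permutation p = 0.1), although the share beyond 1 kb of the right end did with 1 junction per position and strand (-10.5 points, exact permutation p = 0.2). The share beyond 3 kb also came to overlap under an alternative setting. It rests on few B-cell joins, being taken of 236, 239 and 106 joins to the right partner end. These joins lie toward the variable segments, and whether rearrangement of those segments has a part in the values was not tested. Without junctions within 100 bp the right-end difference beyond 1 kb was -16.8 points and still without overlap, and the left-end one was -3.55 points with overlap (exact permutation p = 0.6).

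**Figure D2:**
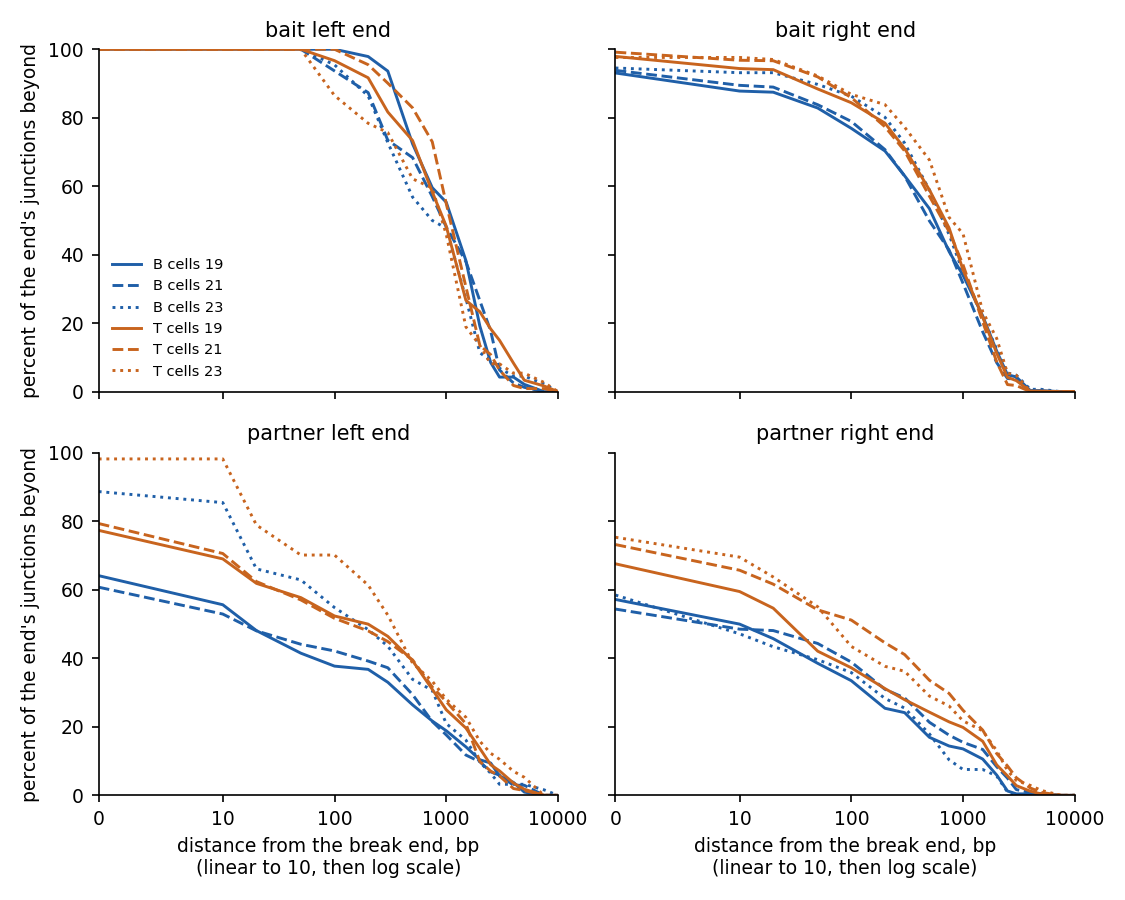
Percent of the joins to each broken end (y axis) that lie farther away than the distance on the x axis (bp, linear to 10 and then logarithmic), with 1 line per library (blue B cells, orange T cells; solid replicate 19, dashed 21, dotted 23). Distance is from the cassette edge at the bait and from the I-SceI sites at the partner. The B-cell lines lie under the T-cell lines at 1 kb from the right partner end (7.55 to 15.5% against 19.8 to 24.8%), and the lines cross at the left bait end.

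Distances taken from the peaks in reference coordinates, as planned, do not allow for the missing stretches and place left-end joins too far away, by 8.18 kb at the bait and, where the reference repeats the flank of the partner cassette, by 3456 bp. On that scale the median at the bait was 707, 742 and 949 bp in B cells and 787, 751 and 1175.5 bp in T cells (exact permutation p = 0.5). At the partner it was 93, 179.5 and 472.5 bp in B cells and 201.5, 832 and 2486 bp in T cells (exact permutation p = 0.2). The partner difference of -925 bp was -268 bp without T-cell replicate 23 and -1411 bp without T-cell replicate 19. Measured from the cassette edges with both ends in one measure it was -108 bp, without overlap (exact permutation p = 0.1). Joins beyond 1 kb of the partner were 31.0, 32.5 and 40.3% in B cells and 42.1, 48.4 and 56.9% in T cells from the peak, without overlap, but with windows of 5 kb they overlapped (-12.4 points, exact permutation p = 0.2).

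A class of partner joins kept an uncut I-SceI site. The partner cassette has 2 sites, and 58, 76 and 30 prey fragments in B cells and 33, 61 and 4 in T cells held a whole one. These were 14.6, 18.6 and 15.1% of the partner window in B cells and 6.95, 6.37 and 2.70% in T cells, a 3.01-fold difference of group means without overlap (exact permutation p = 0.1). Most lay on the + strand, 145 of 164 of the B-cell and 82 of 98 of the T-cell fragments. Of right-end joins within 100 bp of the sites, 33.8, 44.5 and 39.7% held one in B cells and 18.1, 21.1 and 10.3% in T cells. Counting 1 junction per position and strand, the gap in the share of the partner window fell from 10.7 to 5.27 points and still did not overlap. A fragment must be long enough to cover the site, and the median prey length in the partner window was from 70 to 111 in B-cell libraries and from 62 to 133 in T-cell libraries. Its part in the result was not tested.

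Strand use at the partner differed with and without that class. In the partner window 65.6, 65.8 and 61.3% of junctions lay on the + strand in B cells and 57.7, 53.3 and 52.0% in T cells. Without the lines that held a whole site these shares were 61.2, 61.3 and 56.2% in B cells and 55.4, 51.5 and 50.7% in T cells, still without overlap (7.03 points, exact permutation p = 0.1). In the bait window the + strand took 85.8, 82.1 and 73.5% in B cells and 88.7, 89.5 and 80.9% in T cells, with overlap (exact permutation p = 0.3) and B cells lower in all 3 pairs. Junctions running away from the peak made up 92.1, 93.0 and 93.5% at the bait in B cells and 94.1, 93.8 and 94.7% in T cells. At the partner they were 76.9, 73.8 and 77.4% in B cells and 82.1, 79.9 and 83.1% in T cells. Neither overlapped as deposited. The bait did with 1 junction per position and strand (exact permutation p = 0.6). The partner did without lines that held a whole site (exact permutation p = 0.2). The partner peak lies inside the stretch of the I-SceI sites, so that this split does not follow the broken ends. Sorted by broken end, the share running toward the partner differed by -1.10 points (B minus T), with overlap (exact permutation p = 0.4). The lower B-cell share running away from the partner was therefore not seen by that measure.

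**Figure D3:**
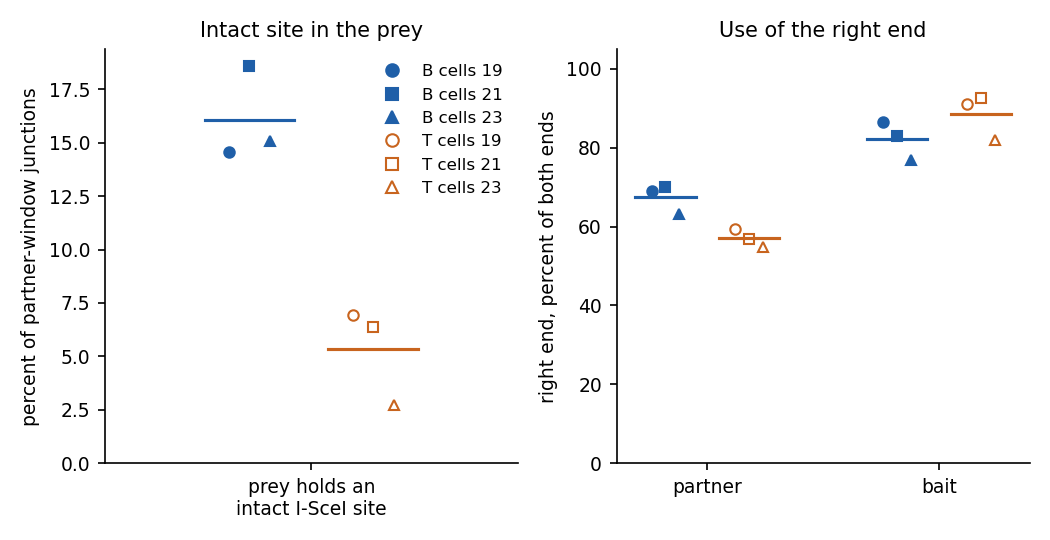
Left, percent of partner-window junctions whose prey held a whole I-SceI site, and right, percent of joins to either end of a break that used its right end (y axes), with 1 point per library and a line at the group mean. B-cell points lie above all T-cell points for the whole site (14.6 to 18.6% against 2.70 to 6.95%) and for the right partner end (63.1 to 70.1% against 54.8 to 59.5%), and the points overlap at the bait.

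Switch regions took joins in every B-cell library. S epsilon, the region joined in switching to IgE, held 12, 25 and 18 junctions in B cells, or 1.29, 2.24 and 3.73% of the library, and 1, 2 and 0 in T cells. The groups did not overlap (exact permutation p = 0.1, adjusted p = 0.167). The 55 B-cell junctions fell on 55 positions between 114512393 and 114515149, and 47 of them lay on the + strand. S gamma 3, which lies between both breaks, held 13, 39 and 3 junctions in B cells and 1, 0 and 0 in T cells, and 36 of its 55 B-cell junctions lay on the + strand. S gamma 2b held 2, 2 and 1 in B cells, or 0.214, 0.179 and 0.207%, and 2, 0 and 0 in T cells, or 0.160, 0 and 0%. The B-cell shares lay above the T-cell ones, on counts of 1 or 2 whose 95% intervals overlap with those of T cells. S gamma 2a held 1 in B-cell replicate 23 and 0 in the other libraries. The S gamma 1 label, which spans the bait break, held 43, 56 and 15 junctions in B cells and 39, 52 and 5 in T cells, or 4.61, 5.02 and 3.106% against 3.113, 1.92 and 1.29%, with overlap. The planned sum of switch regions other than S epsilon outside both windows was 1.61, 3.68 and 1.04% in B cells and 0.239, 0 and 0% in T cells. That difference of 2.03 points was 1.24 without B-cell replicate 21, still without overlap.

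Some B-cell joins fell in DNA that the cassette copy of the chromosome appears to lack. The tables label 29 junctions trans Smu, with 10, 13 and 6 in the B-cell libraries, and a further 22 lay in S gamma 1 between the cassette edges, with 6, 12 and 4. Counting every line in both missing stretches gave 1.71, 2.24 and 2.28% of the B-cell libraries and 0 of 4347 T-cell junctions, which allows a share of up to 0.0690%. The trans label was used to place one of the stretches, so these values are a description. Strand was unlike that of S epsilon, with 20 of 29 on the - strand in S mu and 20 of 22 on the - strand in S gamma 1. Next to the partner cassette, the plain Smu label held 4, 1 and 0 junctions in B cells and 1, 1 and 1 in T cells.

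AGCT was denser in the prey of these regions than in joins to the bait, most of all in S mu and S epsilon, while the printed stretches of S gamma 3 and of the bait edge hold 1 each. Over all prey bases of B cells there were 8.99 AGCT per 100 bases in S mu of the other copy, 3.40 in S epsilon, 2.88 in S gamma 3 and 1.68 in S gamma 1 of the other copy. Joins to the right bait end had 0.596 per 100 bases in B cells against 0.551 in T cells, and those on other chromosomes 0.499 against 0.507. AGCT reads the same on both strands, and switch repeats are known to be rich in it, so that these counts describe the regions and not where in them a break arose.

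**Figure D4:**
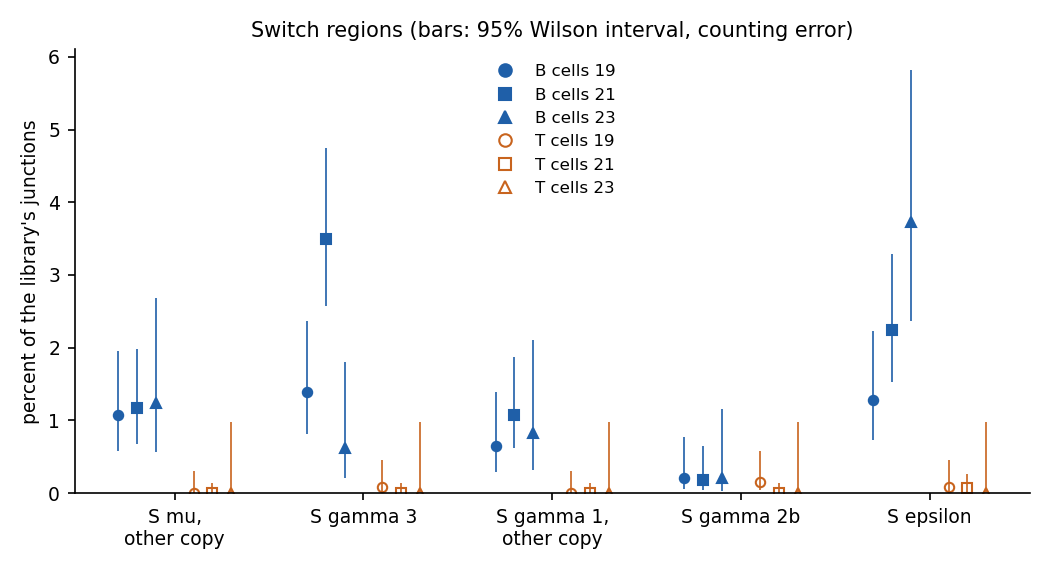
Percent of each library's junctions (y axis) in S mu and S gamma 1 of the other copy, S gamma 3, S gamma 2b and S epsilon, with 1 point per library and bars for the 95% Wilson interval, which covers counting error only. In these 5 regions all T-cell points lie at or under 0.160%, while S epsilon reached 3.73% and S gamma 3 reached 3.50% in B-cell libraries.

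The stretch between both breaks held 2.68, 4.22 and 1.24% of junctions in B cells and 0.559, 0.960 and 1.55% in T cells, with overlap (exact permutation p = 0.2). Without the S gamma 3 label the shares were 1.29, 0.717 and 0.621% in B cells and 0.479, 0.960 and 1.55% in T cells (exact permutation p = 0.7). The surplus in B-cell replicate 21 was thus in S gamma 3. On the rest of chromosome 12 the B-cell surplus was partly outside switch regions. Without lines with a switch label it held 5.89, 6.37 and 4.55% in B cells and 2.79, 2.77 and 4.13% in T cells, without overlap (exact permutation p = 0.1). These shares too include joins to the left bait end that lie beyond the bait window. From 0.1 to 1 Mb away from the nearer break lay 7, 11 and 4 junctions in B cells and 6, 6 and 1 in T cells, or 0.855% ± 0.120 (SD, n = 3) against 0.320% ± 0.139 (SD, n = 3) of a library, a difference that was not tested. From 1 to 5 Mb lay 1.29, 1.17 and 0.207% in B cells and 0.0798, 0.185 and 0.517% in T cells, with overlap. The groups also overlapped from 5 to 20 Mb, over 20 Mb and, without switch labels, from 10 to 100 kb. In each of these steps the B-cell mean was the higher.

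Telomeric of the partner, junctions were counted by distance in steps chosen after the positions were seen, so that no test is given. The joining, diversity and variable segments of IgH lie on this side, and V(D)J recombination in developing B cells deletes the DNA between the segments it joins. From 10 to 100 kb beyond the partner peak T cells had 4, 12 and 3 junctions and B cells 1, 1 and 0, or 0.319, 0.443 and 0.775% against 0.107, 0.0897 and 0%. From 0.1 to 3 Mb beyond it B cells had 7, 11 and 0 junctions, 15 of the 18 on the + strand, and T cells 1, 0 and 0. B-cell replicate 23, where a count of 0 allows up to 0.621%, does not share the counts of replicates 19 and 21. From 3 to 10 kb beyond the peak B cells had 1, 4 and 1 junctions, or 0.107, 0.359 and 0.207%, and T cells 10, 33 and 4, or 0.798, 1.22 and 1.03%. Whether rearranged alleles have a part in these values was not tested.

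**Figure D5:**
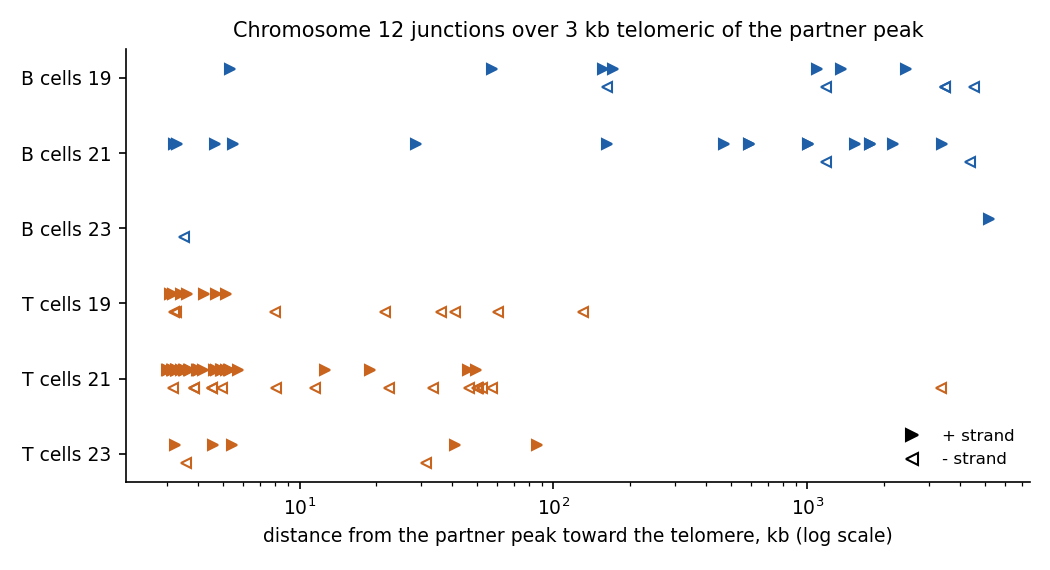
Chromosome 12 junctions more than 3 kb telomeric of the partner peak, by distance from the peak (x axis, kb, log scale) and library (y axis), with filled triangles for the + strand and open triangles for the - strand. T cells have 19 junctions from 10 to 100 kb, where B cells have 2, and B-cell replicates 19 and 21 have 18 from 0.1 to 3 Mb, where T cells have 1.

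Joins to other chromosomes were spread widely in both groups. B-cell libraries had 76, 75 and 36 of them, on 18, 18 and 12 chromosomes, and T-cell libraries 26, 62 and 8, on 14, 18 and 6. The chromosome with the most held at most 10 in any library. The + strand took 59.2, 48.0 and 52.8% in B cells and 57.7, 37.1 and 75% in T cells, and the overlap of the groups leaves no order. A gene label stood on 51.3, 58.7 and 47.2% of these junctions in B cells and 76.9, 51.6 and 25% in T cells, where T-cell replicate 23 rests on 8 junctions. The group difference of 5.30 points in the share of all junctions was 5.25 points on the run of replicates 19 and 21 and 5.39 on that of replicate 23.

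Few genes recurred. Among 144 gene labels on other chromosomes, 7 were found in more than 1 library, each with 2 or 3 junctions, and 4 of them in both groups. Epb4.1l5, which encodes a FERM-domain protein, was hit at the same position and strand in B-cell replicates 19 and 21. Gsdma2, of the gasdermin family of pore-forming proteins, was hit so in B-cell replicate 23 and T-cell replicate 19, and Samd4 in replicate 19 of both groups, which the tables cannot tell from reads shared between libraries. Cyth1 and Fnbp1 were hit at separate places, Herc3 in T-cell replicates 19 and 21 at 58794963 and 58794999, and Mmp24 on both strands. Of a list of 14 genes outside IgH known to be broken in activated B cells, 2 were hit, all in B-cell replicate 21, with 2 junctions in Myc, the proto-oncogene translocated to IgH in B-cell tumours, and 1 in Aff3. That is 3 of 187 B-cell junctions on other chromosomes and 0 of 96 in T cells, which allows up to 3.12%. Over the 6 libraries, 142 of 21221 protein-coding genes off chromosome 12 in the RefSeq table (GRCm38 names) were hit (0.669%), and with 3 junctions nothing is read from the list. Of 7 antigen receptor names and 10 genes active in T cells, 0 were hit on other chromosomes in either group. Among the antigen receptor names, Igh lies on chromosome 12 and could not be hit there. The others name whole loci, which the gene labels may not use, so nothing is read from that list.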

How the data were processed

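Genomic DNA junctions of 6 HTGTS libraries were analysed. Per the labels' protocols, sonicated DNA went through adapter PCR and MiSeq sequencing. Per the file headers, each line gives the prey position, strand, aligned bases, read and gene label, and an alignment score that the authors' aligner left (30 or more in every library). The build was mm9, per the submitters' processing notes. The aligner, like the filters, is not given in the sources used here. Positions are printed counted from 1, at the first prey base.

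The peaks are the most used positions of the 2 highest 5 kb windows of chromosome 12, libraries weighted equally, at least 20 kb apart. Windows reach 10 kb to either side. Cassette edges, broken ends and telomeric distances were added after the data were seen, the flanking repeat being placed by 162 of 162 lines. Group means were set against each other by exact permutation tests, two-sided, with Benjamini-Hochberg adjustment over 15 planned and, separately, 26 added measures. Wilson intervals are at 95%, the limit for a class with no line is 3 counts, and neither covers more than counting error, since PCR reads without molecular identifiers are not independent molecules. The peak step, the window shares, a median distance and the exact tests were tested on simulated data. The cassette edges, the broken ends, the missing stretches and the search for whole I-SceI sites were not. Python 3.11.15, pandas 2.3.3, numpy 2.4.6, scipy 1.17.1 and matplotlib 3.10.9 were used.

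Libraries were paired by replicate number. Over 32 bins of 500 bp on chromosome 12, the deviations of same-numbered B and T libraries from their group means correlated at 0.492, 0.751 and 0.674 for replicates 19, 21 and 23. Pairs of unlike number ranged from -0.625 to 0.259. Deviations cancel within a group, so that these values are not independent. Replicate 23 of both groups also shared a run, which cannot be told apart from the number. Members and gene lists were chosen with earlier results of these data known. All switch labels, gene labels found in more than 1 library and members found of 3 gene lists were named. Alternatives were 1 junction per position and strand, prey of at least 50 bases, windows of 5 and 20 kb, no junctions within 100 bp of a peak, the replicate block, each library left out, cassette-edge distances, and no lines with a whole I-SceI site. Distances to genes were not analysed here.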

Additional observations from a re-analysis of the deposited data

How the results depend on the processing

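With 3 against 3 libraries no measure could pass 0.05, so that directions and the overlap of libraries are what could change. Of the 9 planned measures without overlap, 5 stayed so in every alternative over all 6 libraries. The others came to overlap, namely the rest of chromosome 12 with windows of 5 kb (exact permutation p = 0.2), the partner share beyond 1 kb there and without lines with a whole site (p = 0.2 in each), junctions running away from the bait with 1 junction per position and strand (p = 0.6) and from the partner without lines with a whole site (p = 0.2). Windows of 5 kb end before the left cassette edge, so that all joins to the left bait end move to the rest of chromosome 12. Another 4 planned measures lost their overlap under some alternative. Of 17 added measures without overlap, 9 stayed so. The 17 include the telomeric share from 10 to 100 kb and the share in the missing stretches, both set from these same data. Their count is a description and no support for the results. By direction, of the 15 planned measures, 12 kept their direction under every alternative run, and of the 26 added ones 21 did. The partner window share (3.01 points, B minus T) was -0.596 when each position and strand counted once. The bait median on the reference scale (-105 bp) was 59.2 bp without junctions within 100 bp and from -182 to 30.3 bp with 1 library left out. The bait share beyond 1 kb (-1.46 points) was 0.285 without those junctions and from -4.22 to 3.24 points with 1 library left out. Among the added measures the left bait median (-15.3 bp) was 21.7 bp with 1 junction per position and strand, 38.0 bp without junctions within 100 bp and from -115 to 79.2 bp with 1 library left out. The left bait share beyond 1 kb (0.638 points) was -0.543 with prey of at least 50 bases, -0.470 without junctions within 100 bp and from -1.83 to 3.24 with 1 library left out. The left bait end's share of the library (0.928 points) ranged from -0.0971 to 2.63, and the stretch between the breaks without S gamma 3 (-0.122 points) from -0.381 to 0.155, with 1 library left out. Junctions running toward the partner (-1.10 points) were 0.227 with 1 junction per position and strand and 0.638 without lines with a whole site. The cause was not tested for any of these. In the paired analysis with the replicate block, the smallest exact sign-flip permutation p is 0.25. There the other chromosomes differed by 5.30 points, between 4.44 and 6.07 in the 3 pairs, and the block changed no call. Libraries of 387 and 483 junctions limit what replicate 23 can show for rare classes.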

Other observations

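The tightest cluster on other chromosomes was one of 10 junctions within 36 bp at 122256218 to 122256253 of chromosome 6 (mm9), with no gene label and all on the + strand. B-cell replicates 19, 21 and 23 held 2, 2 and 0 of them and the T-cell replicates 2, 4 and 0, with alignment scores of 31 to 68. Without it other chromosomes took on average 7.31% of the B-cell and 2.04% of the T-cell lines. The number of bait bases on the read had medians of 66.5, 64 and 50 in B cells and 66, 66 and 65 in T cells (exact permutation p = 0.4), with B-cell replicate 23 the lowest.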
